A study of Homo sapiens with 2 samples.

Results

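The 3 genes of the RUNX family of transcription factors, RUNX1, RUNX2 and RUNX3, were examined in a TP73 ChIP-seq peak list from TL-Om1 cells. A peak was counted at a gene when its summit lay inside the hg19 span of the gene or within 30 kb of either end. By this rule 38 of the 18908 peaks of the list belonged to the family: 19 at RUNX3, 19 at RUNX1 and 0 at RUNX2. The loci were chosen by the number of peaks, since the fullest stretch of 100 kb in the list covers RUNX3, so the number, spacing and strength of these peaks are descriptions and no test was made on them.

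TL-Om1 is an established line of human leukaemic T cells (adult T-cell leukaemia). The series holds 1 library from chromatin precipitated with an antibody against TP73 (abcam) and 1 input library of whole cell extract from the same line, labelled as the background. Both came from untreated cells grown in RPMI-1640 with 10% FBS and antibiotics and fixed with formaldehyde for 10 min. With 1 ChIP library behind the peaks there is no replicate error, and how the peaks vary between cultures was not measured. A peak list holds no expression values, so neither the T-cell identity of the line nor the activity of any RUNX gene was checked here.

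RUNX proteins bind DNA through a shared Runt domain, as dimers with the partner protein CBFB, and recognise the letters TGTGGT. RUNX1 is needed for blood formation and for T-cell development, RUNX3 for the CD8 lineage of T cells, and RUNX2 is best known as the master regulator of bone formation. Each gene can be transcribed from a distal promoter at its 5′ end or from a proximal promoter far inside the gene. TP73 is a sequence-specific transcription factor.

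RUNX3 and RUNX1 carried peaks at or near both of their promoters, and RUNX2 at neither. The spans used here are on hg19 and rounded to 1 kb, and the promoter positions are from RefSeq on GRCh38.p14, so only distances from the 5′ end of the gene were set side by side, each within its own build. The gene lengths were close, at 66 kb for the hg19 span and 65.6 kb in RefSeq for RUNX3, 262 and 261.5 kb for RUNX1, and 223 and 222.8 kb for RUNX2. RefSeq places the proximal start 34.9 kb into RUNX3, 160.6 kb into RUNX1 and 93.9 kb into RUNX2. Within 2 kb of the 5′ end or of the proximal start lay 5 summits at RUNX3, 3 at RUNX1 and 0 at RUNX2. The share of all promoters with a summit within 2 kb was not analysed here, so whether these counts stand out is not known.

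The sequences in front of 4 of the RUNX starts show what these promoters share and where they differ. The RefSeq table matched all 3 genes and held 5 starts of them (distal and proximal for RUNX3 and RUNX2, proximal for RUNX1), each with 250 bases before and 50 bases after the start. The 250 bases before the start are given for the starts among these with a peak nearby and for the distal start of RUNX2, read 5′ to 3′ on the strand of the gene. Capitals mark the letters TGTGGT or their reverse complement ACCACA. The RUNX3 distal sequence is from chr1:24965011-24965260, the RUNX3 proximal from chr1:24930277-24930526, the RUNX1 proximal from chr21:34888700-34888949 (all on the minus strand) and the RUNX2 distal from chr6:45328080-45328329 (plus strand), all on GRCh38.p14.
RUNX3 distal: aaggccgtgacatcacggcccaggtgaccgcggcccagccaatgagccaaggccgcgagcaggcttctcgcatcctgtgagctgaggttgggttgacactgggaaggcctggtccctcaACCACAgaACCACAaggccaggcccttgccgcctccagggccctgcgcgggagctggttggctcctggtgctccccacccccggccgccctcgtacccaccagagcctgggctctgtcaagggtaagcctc
RUNX2 distal: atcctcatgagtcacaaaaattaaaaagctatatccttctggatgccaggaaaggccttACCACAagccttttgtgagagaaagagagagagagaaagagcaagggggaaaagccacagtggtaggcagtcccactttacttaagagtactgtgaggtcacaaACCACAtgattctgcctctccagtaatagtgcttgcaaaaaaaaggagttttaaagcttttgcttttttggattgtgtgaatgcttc
RUNX3 proximal: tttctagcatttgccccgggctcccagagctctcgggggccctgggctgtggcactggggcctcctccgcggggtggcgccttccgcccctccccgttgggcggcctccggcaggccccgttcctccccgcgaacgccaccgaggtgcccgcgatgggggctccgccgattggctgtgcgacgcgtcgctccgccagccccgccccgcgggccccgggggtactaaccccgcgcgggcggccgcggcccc
RUNX1 proximal: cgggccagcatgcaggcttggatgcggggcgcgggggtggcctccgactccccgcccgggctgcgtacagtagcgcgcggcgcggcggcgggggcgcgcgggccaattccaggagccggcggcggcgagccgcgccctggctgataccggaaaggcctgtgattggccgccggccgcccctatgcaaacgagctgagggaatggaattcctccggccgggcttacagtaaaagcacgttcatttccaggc

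The distal promoters of RUNX3 and RUNX2 hold the family's own binding letters. Over the full 300 bases, TGTGGT occurred 2 times at the RUNX3 distal start and 4 times at the RUNX2 distal start, counted on both strands. It occurred 0 times at the proximal starts of RUNX1, RUNX2 and RUNX3. Of 35116 RefSeq promoters of the same length, 13.1% hold it at least once. The RUNX3 and RUNX2 distal promoters share a run of 18 bases with the motif in tandem, which lies before the start in RUNX3 and within the 50 bases after the start in RUNX2, so that it is not in the RUNX2 sequence printed above:
shared run: caACCACAgaACCACAag
This run was found in 2 of the 35116 promoters, which are these promoters of RUNX3 and RUNX2. All pairs of the 5 starts were compared, each read on the strand of its gene. Runs shared with the reverse complement of another start were not searched for. The proximal promoters of RUNX2 and RUNX1 shared a run of 16 bases without the motif, found in 3 of the promoters, and every other pair at most 10 bases. A summit lies within 1 kb of the RUNX3 copy of the run of 18 bases, and none within 30 kb of RUNX2. Whether these letters have a part in either was not tested.

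The proximal promoters were rich in G and C. Their GC content was 76.0% at RUNX3, 76.0% at RUNX2 and 72.0% at RUNX1, against a median of 58.7% over all RefSeq promoters. The RUNX3 distal promoter had 66.3% and the RUNX2 distal promoter 42.7%. CG dinucleotides numbered 38, 39 and 40 at the proximal starts of RUNX3, RUNX2 and RUNX1, 15 at the RUNX3 distal start and 2 at the RUNX2 distal start. RUNX3 and RUNX1 carried peaks near their GC-rich proximal starts, and RUNX2, whose proximal start is as GC-rich, did not. Whether GC content has a part in this was not tested.

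Letters bound by factors of the AP-1 and ETS families were counted in the same 300 bases of the 5 RUNX starts. The AP-1 letters TGANTCA occurred once, at the RUNX2 distal start (7.71% of all promoters hold them), and the ETS letters CCGGAA once, at the RUNX1 proximal start (17.2% of all promoters). A match or its absence describes these 300 bases only, and the sequences under the peaks were not used here.

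RUNX3 carried peaks most densely of the 3 genes. Its 19 peaks fell in 126 kb, which is 15.1 peaks per 100 kb (95% exact Poisson interval 9.08 to 23.5). RUNX1 carried the same number in 322 kb, or 5.90 per 100 kb (3.55 to 9.21). At RUNX2 the 283 kb held 0 peaks, with an upper bound of 1.30 per 100 kb. For comparison, chromosome 1 held 0.828 peaks per 100 kb from its first to its last summit, chromosome 21 held 0.703 and chromosome 6 held 0.459. The intervals cover counting error only and treat neighbouring peaks as independent.

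Windows of the same length over the autosomes and chromosome X give the background of these counts. Of 23361 windows of 126 kb, 1 window (0.00428%) held at least 19 peaks, and the next fullest held 15. RUNX3 was picked for this density, so its place at the end of the range is what the choice made. Of 9155 windows of 322 kb, 9 (0.0983%) held at least 19 peaks, the number at RUNX1. The empty RUNX2 locus was of a common kind: 40.6% of 10414 windows of 283 kb, and 46.6% of those on chromosome 6, held 0 peaks. These windows include assembly gaps and other stretches that reads cannot reach.

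**Figure D1:**
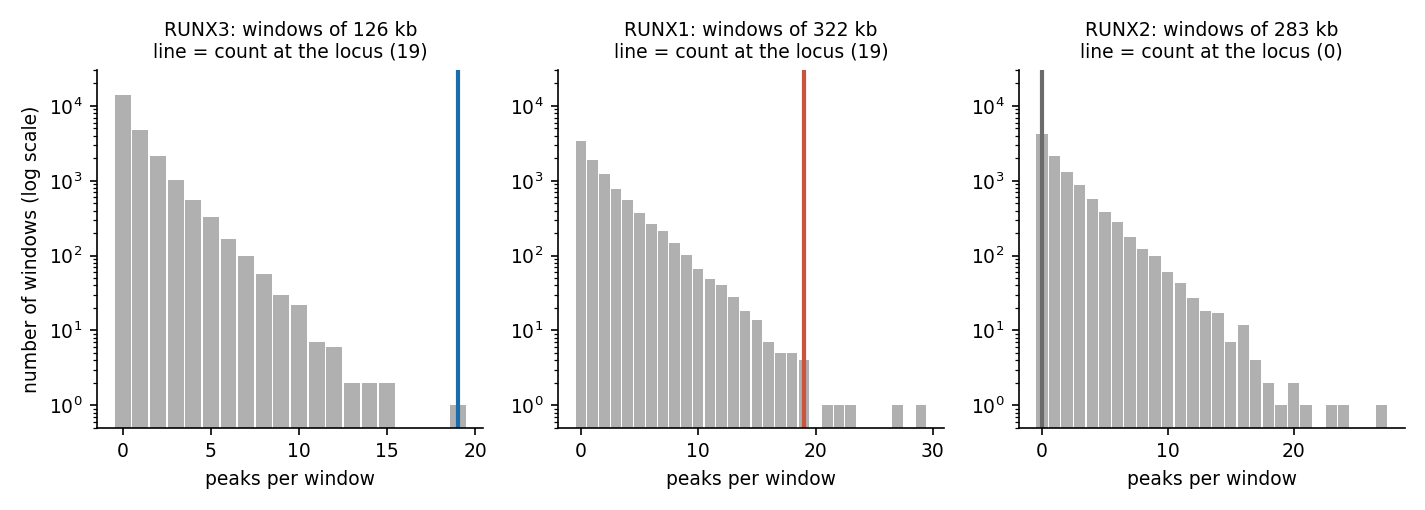
Each panel shows how many windows of the autosomes and chromosome X (vertical axis, log scale) held a given number of TP73 peaks (horizontal axis), for windows as long as the RUNX3, RUNX1 and RUNX2 loci. The coloured line is the count at the locus: 19 at RUNX3 lies at the end of its range, 19 at RUNX1 lies in the upper tail with 9 windows at or above it, and 0 at RUNX2 falls on the tallest bar.

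Within RUNX3, the peaks crowded into the part of the gene behind the proximal promoter. Of its 19 summits, 16 lay inside the span, 3 in the 30 kb upstream of the 5′ end and 0 in the 30 kb downstream of the 3′ end. Between the 5′ end and the proximal start lay 4 summits in 34.9 kb, or 11.5 per 100 kb. From the proximal start to the 3′ end lay 12 summits in 31.1 kb, or 38.5 per 100 kb. The summit nearest to the proximal start, 0.256 kb from it, was counted in the second part, and with spans rounded to 1 kb it could fall in the first. A stretch of 20 kb starting at a summit of this part held 11 peaks, and 1 of the 18851 such stretches in the list held more, with 12.

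The RUNX3 distal promoter carried one of the strongest peaks of the gene. This peak, on chromosome 1 at 25291431 to 25292036 (hg19), was 606 bp wide with a summit 0.131 kb inside the 5′ end. Its fold enrichment over the control was 26.9 and its −log10 q-value 102.6, both as the authors' caller gave them. Solving its fold and p-value for reads gave 93 ChIP reads at the summit, and reads below were found in the same way. Another summit lay 1.36 kb upstream of the 5′ end, with a fold of 8.60 and 29 reads. The promoter peak was thus both wider and stronger than its upstream neighbour.

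The RUNX3 proximal promoter carried a wide but weaker peak, at 25256428 to 25257065. At 638 bp it was the widest peak of the locus, and its fold was 10.5 with 42 ChIP reads. RefSeq also places the start of the antisense gene RUNX3-AS1 at this promoter, on the opposite strand, and a peak list carries no strand, so the peak cannot be assigned to either gene. A pair of further summits followed within 2 kb of the proximal start, at 25256099 with a fold of 8.24 and 29 reads and at 25255375 with a fold of 7.41 and 26 reads.

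The strongest RUNX3 peak lay at neither promoter. It was found at 25227809 to 25228242, 64.0 kb from the 5′ end and so near the 3′ end of the gene. Its fold was 42.2 and its −log10 q-value 219.1, with 172 ChIP reads over 3 control reads per fragment length (142 bp, the width of the shortest peaks), and it ranked 1009 of 18908 by q-value. The second by q-value, at 25251564 to 25251928, had a −log10 q-value of 118.7 with 127 reads. Its fold was 20.8, because the control background of 5 reads was the highest of all 38 peaks. By fold it stood behind 4 other RUNX3 peaks.

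Between these lay 2 more strong peaks of the gene body. The peak at 25238999 to 25239328 had a fold of 24.9, a −log10 q-value of 91.7 and 86 reads. The peak at 25247033 to 25247377 had a fold of 24.1, a −log10 q-value of 87.2 and 83 reads. Together with the distal promoter peak these are the 5 RUNX3 peaks with the highest q-values. Below them came a peak at 25273892 to 25274268, 18.0 kb into the gene, with a fold of 15.6 and 63 reads.

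The remaining RUNX3 peaks had lower folds, the highest of them 11.8 and 11.5, close to the median of 11.3 over all peaks. Of the 19, 10 had a fold under 10, and the lowest fold, 6.83, was at 25237397 to 25237553 with 27 reads. By q-value the lowest were 2 peaks tied at 12.7, at 25237662 to 25237876 and at 25281708 to 25281933. Each had 24 reads over the genome-wide control background and a fold of 7.17. The fewest reads that gave a peak at that background anywhere in the list was 18, so these peaks stood a few reads above the limit of calling. How many of them would be called at another depth was not tested.

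RUNX1 carried its peaks across the whole gene, with the strongest far from both promoters. Of 19 summits, 17 lay inside the span, 2 in the upstream 30 kb and 0 in the downstream 30 kb. The strongest peak of the family was at chromosome 21, 36346507 to 36347083 (hg19), 75.3 kb into the gene and between its promoters. Its fold was 51.7 and its −log10 q-value 256.9, with 186 ChIP reads, and it ranked 692 of 18908 by q-value. The second was upstream of the gene, at 36435824 to 36436196, 14.0 kb before the 5′ end. It had a fold of 46.1, a −log10 q-value of 247.2 and 188 reads, the most of any RUNX peak, over a higher background of 3 control reads.

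The next 3 RUNX1 peaks complete its 5 highest by q-value. The peak at 36237560 to 36238114, 184.3 kb into the gene and beyond the proximal start, had a fold of 26.1, a −log10 q-value of 97.9 and 90 reads. The peak at 36317467 to 36317793, 104.4 kb into the gene, had a fold of 18.5, a −log10 q-value of 69.9 and 75 reads. The peak at 36216657 to 36216940 had a fold of 18.9, a −log10 q-value of 65.6 and 69 reads. The last of these, with a higher fold than the peak at 104.4 kb, ranked below it by q-value.

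Both RUNX1 promoters carried peaks of middling fold. At the 5′ end, the peak at 36421037 to 36421731 had its summit 0.829 kb inside the span. At 695 bp it was the widest RUNX peak, yet its fold was 11.2 with 38 ChIP reads, close to the median fold of 11.3 over all peaks. Near the proximal start, the summit at 36261093 had a fold of 10.5 with 38 reads, and the summit at 36262458 a fold of 11.4 with 40 reads. The distal promoter peaks of RUNX1 and RUNX3 were alike in width, at 695 and 606 bp, and unlike in reads, at 38 and 93.

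The other RUNX1 peaks spread over both parts of the gene. Between the 5′ end and the proximal start lay 11 summits in 160.6 kb, or 6.85 per 100 kb, and beyond it 6 in 101.4 kb, or 5.92 per 100 kb. Unlike at RUNX3, neither part stood out by count. In the first part, the peaks with summits at 36399158 and 36394571 had folds of 17.8 and 14.7, with 64 and 59 reads. In the second part, the peak nearest to the 3′ end, with its summit at 36180026 and 242.0 kb into the gene, had a fold of 15.6 with 56 reads. The lowest RUNX1 peak by q-value, at 36415932 to 36416157, had 24 reads and a fold of 7.17, the same values as the tied weakest peaks by q-value of RUNX3.

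**Figure D2:**
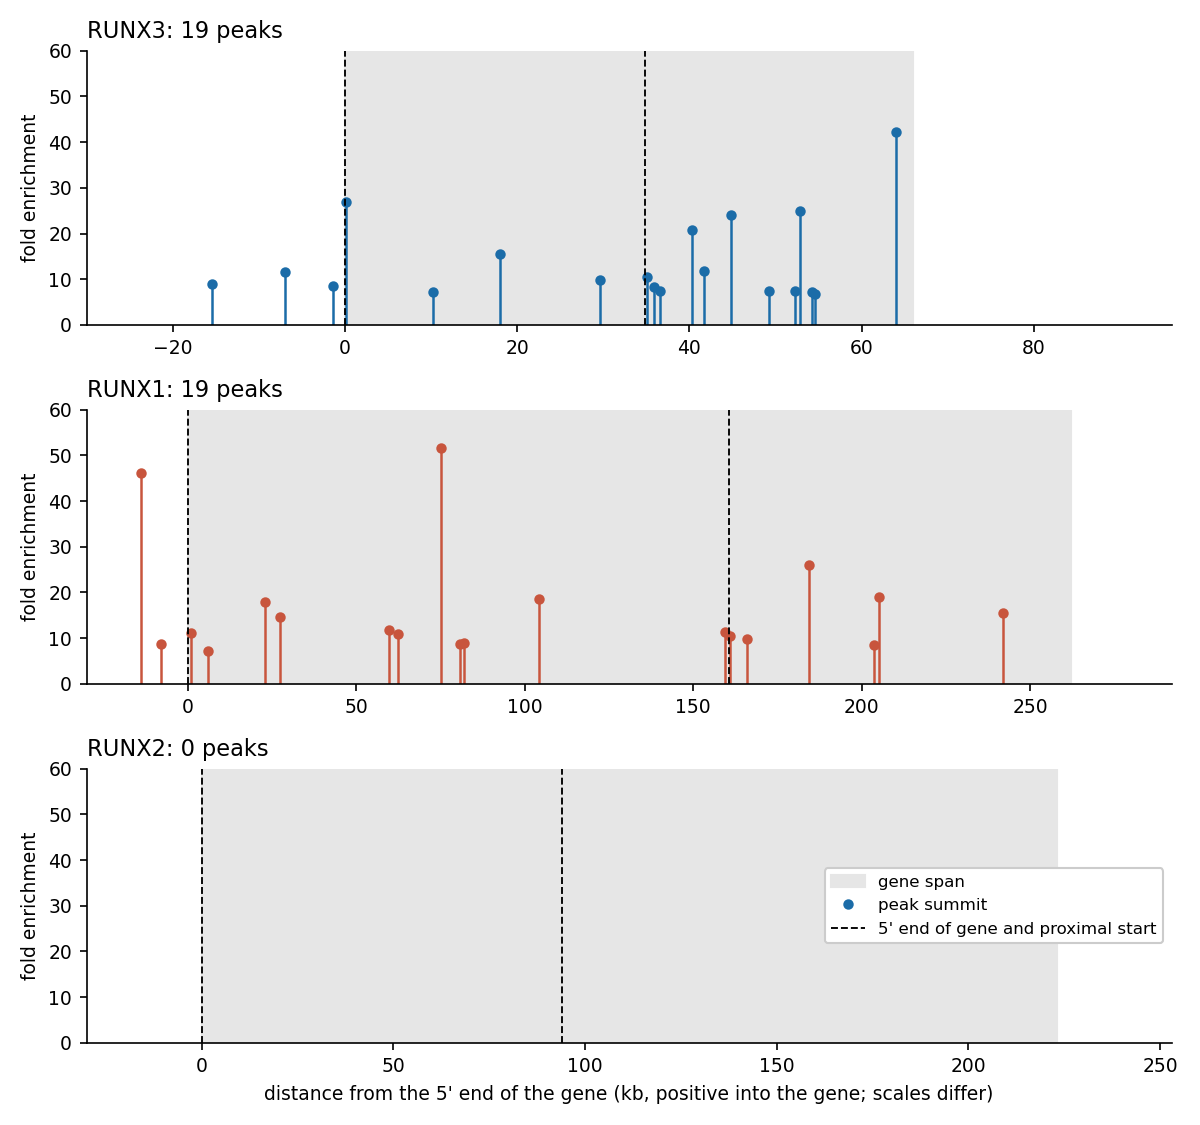
Each vertical line is a TP73 peak at its distance from the 5′ end of the gene in kb (horizontal axis, with a different scale in each panel) and its height is the fold enrichment over the control (vertical axis); grey marks the gene span, dashed lines the 5′ end and the RefSeq proximal start, placed by distance within the gene. RUNX3 shows 12 peaks behind the proximal start and its highest peak, with a fold of 42.2, near the 3′ end; RUNX1 shows its highest, with a fold of 51.7, between the promoters; RUNX2 is empty.

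RUNX2 lay in a long stretch without peaks. The nearest summits were at 45030630 on chromosome 6, 265.4 kb before the 5′ end, and at 45649814, 130.8 kb beyond the 3′ end. The interval between them was 619.2 kb. Of 18828 intervals between neighbouring summits of the autosomes and chromosome X, 1027 (5.45%) were at least as long. On chromosome 6 there were 73 such intervals of 784. These are shares of intervals and not of the genome, of which long intervals take up more than short ones. How much of the genome lies in such intervals was not analysed here. Of windows as long as the RUNX2 locus, 40.6% held 0 peaks, as given above. The peak before RUNX2 had a fold of 21.2 with 73 reads, and the peak after it a fold of 12.0 with 41 reads. In RefSeq the gene SUPT3H overlaps RUNX2 at its 5′ end, and CLIC5 is the next protein-coding gene on the other side.

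All 15 peaks of chromosome 6 between 44 and 47 Mb were scored against the genome-wide background, the lowest the caller used, against 69.3% of all peaks on chromosome 6 and 51.9% of peaks in the whole list. A count of 0 peaks means that no position reached the limit of calling. It does not measure how much TP73 was present below that limit, and the number of ChIP reads over RUNX2 was not analysed here. Whether the local level of the control has a part in the count of 0 was not tested.

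In strength the RUNX peaks were close to the rest of the list. The median fold was 9.74 at RUNX3 (95% binomial interval of the median 7.45 to 20.8) and 11.4 at RUNX1 (8.97 to 18.5). Over all 18908 peaks it was 11.3. The intervals of medians treat neighbouring peaks of 1 library as independent and do not measure spread between cultures. A fold of at least 10 was reached by 9 of 19 peaks at RUNX3 (47.4%) and 13 of 19 at RUNX1 (68.4%), against 59.8% of all peaks. A fold of at least 20 was reached by 5 peaks at RUNX3 (26.3%) and 3 at RUNX1 (15.8%), against 23.0% of all peaks. A fold of at least 50 was reached by 0 peaks at RUNX3 and 1 at RUNX1, against 3.54% of all peaks. With 19 peaks a locus, these shares lie near the background. A −log10 q-value of at least 30 was reached by 7 peaks at RUNX3 (36.8%) and 9 at RUNX1 (47.4%). Both shares were below the 51.6% of all peaks.

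ChIP reads at the summit ranged from 24 to 172 at RUNX3, with a median of 33, and from 24 to 188 at RUNX1, with a median of 40; the median over all peaks was 43. Summed over the summits, RUNX3 had 1021 ChIP reads and RUNX1 1185, so near-equal totals were spread over 126 kb at RUNX3 and over 322 kb at RUNX1. The peaks covered 5673 bp at RUNX3 and 5941 bp at RUNX1. The median width was 264 bp at RUNX3, 250 bp at RUNX1 and 255 bp over all peaks.

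The control background at the summits ranged from 2.41 to 5 control reads per fragment length at RUNX3 and from 2.41 to 3.55 at RUNX1, and 2.41 is the genome-wide level below which the caller did not go. The genome-wide level applied to 9 of 19 peaks at RUNX3 (47.4%) and 5 of 19 at RUNX1 (26.3%). Over all peaks the share was the 51.9% given above, over chromosome 1 it was 34.3% and over chromosome 21 37.9%. RUNX3 was thus above its chromosome and below the whole list, and RUNX1 was below both. The median background was 2.46 at RUNX3, against 2.87 over chromosome 1, and 2.61 at RUNX1, against 2.56 over chromosome 21. Over all peaks it was 2.41, below both loci.

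**Figure D3:**
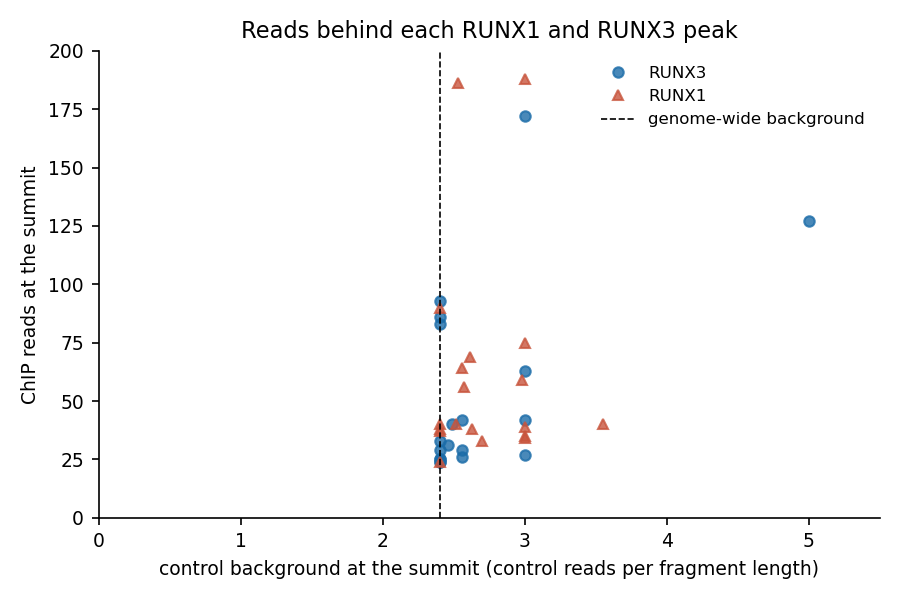
Each point is a peak of RUNX3 (circles) or RUNX1 (triangles), with the control background at its summit in control reads per fragment length (horizontal axis) and the ChIP reads at its summit (vertical axis); the dashed line is the genome-wide background. A peak at each gene stands far above the rest with 172 and 186 reads, joined by a second RUNX1 peak with 188, and 1 RUNX3 peak with 127 reads stands apart at a background of 5.

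Summits at RUNX3 lay closer together than at RUNX1. The median distance between neighbouring summits was 3375 bp at RUNX3 (95% binomial interval of the median 1338 to 7786) and 7395 bp at RUNX1 (4587 to 19432). Over the list it was 48167 bp. At each locus only distances between the summits counted there were used, so many summits in a fixed length make them short. Distances over the list had no such limit, so these medians restate the counts. The longest distance between neighbours was 11641 bp at RUNX3 and 55169 bp at RUNX1. Another summit within 1 kb was found for 7 of 19 peaks at RUNX3 and 0 of 19 at RUNX1, against 13.3% of all peaks. The closest RUNX1 neighbours were 1007 bp apart, just past that limit. The 7 RUNX3 peaks form 3 groups, around 25237433, around 25239137 and at the proximal promoter.

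Of these groups, 1 held a strong peak. The peak with 86 reads had a neighbour 560 bp away with 25 reads and a fold of 7.45. The group at 25237433 held peaks of 27 and 24 reads, 366 bp apart, and the summits of the group at the proximal promoter had 26, 29 and 42 reads. The peak with its summit at 25242708, which has no neighbour within 1 kb, had the same 25 reads and fold of 7.45. Whether the caller split single regions into several peaks was not tested; with summits closer than 500 bp merged, 18 of the 19 RUNX3 peaks and all 19 RUNX1 peaks were left.

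**Figure D4:**
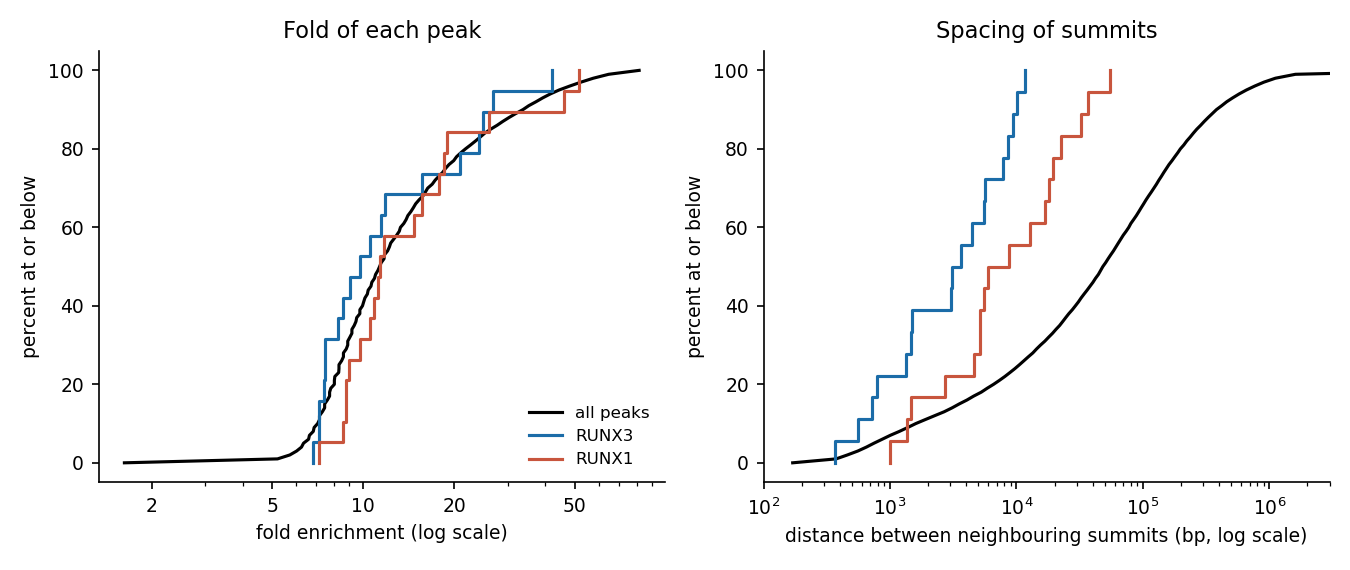
Cumulative curves give the percent of peaks at or below each fold enrichment (left, log scale) and the percent of neighbouring summits at or below each distance in bp (right, log scale), for RUNX3, RUNX1 and all peaks of the list. The fold curves of RUNX3 and RUNX1 run along that of all peaks, with medians of 9.74, 11.4 and 11.3, while their spacing lies to the left of it, with medians of 3375, 7395 and 48167 bp. Distances at each locus are only those between the peaks counted there, so many peaks in a fixed length make them short.

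RUNX3 kept a high place among the fullest stretches, though not the first, when only strong peaks were counted. Among windows of 100 kb laid end to end, its window came first of the 9953 with a peak. With only peaks of a −log10 q-value of at least 30 counted, the RUNX3 window held 7 peaks and ranked 7th of 6602. That limit kept 51.6% of all peaks. With all peaks counted, RUNX1's fullest window of 100 kb laid end to end held 8 peaks and ranked 46th of 9953. Among windows starting at each summit, which overlap, its fullest held 11 peaks and ranked 79th of 18851. At least 50 ChIP reads were found at 6 of 19 RUNX3 summits (31.6%) and 8 of 19 RUNX1 summits (42.1%), against 41.9% of all peaks, so these shares too lie near the background.

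The limit of 30 kb left few doubtful cases. At RUNX3 the outermost summit counted lay 15.5 kb upstream of the gene, with a fold of 9.04 and 31 reads. The nearest summits left out were 57.1 kb upstream, with a fold of 16.1 and 65 reads, and 43.8 kb beyond the 3′ end, with a fold of 6.88 and 23 reads. At RUNX1 the outermost summit counted was the strong peak 14.0 kb upstream, and the nearest left out lay 112.3 kb beyond the 3′ end, with a fold of 15.3 and 66 reads, and 248.2 kb upstream, with a fold of 8.06 and 32 reads. The RUNX1 peaks were thus bounded on both sides by over 100 kb without a called peak, whereas the next peaks around RUNX3 were nearer. In RefSeq the protein-coding neighbours are CLIC4 and SYF2 for RUNX3 and CLIC6 and SETD4 for RUNX1. MIR6731 and RUNX3-AS1 overlap RUNX3, and RUNX1-AS1 and RUNX1-IT1 overlap RUNX1. A peak list does not say which of these genes a peak belongs to.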

How the data were processed

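The data are 1 peak list from TP73 ChIP-seq of TL-Om1 cells, on hg19, with positions given counted from 1. The submitters' processing notes name MACS2, SAMtools and Bowtie2, without parameters. The deposited columns are, per peak, a fold enrichment (a ratio to the control), the −log10 of the p-value and q-value, a score and the summit offset. These are the authors' values. The labels name input as the background, whereas all 18908 peak names contain IgG, so the control used is not settled.

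Fold and p-value were solved for ChIP reads and control background with the caller's formulas, fold = (pileup + 1) / (background + 1) and a Poisson tail. All peaks had a solution, 101 more than 1, among them 0 RUNX peaks. One ChIP read was worth 0.975 units of pileup, and 100% of 8987 peaks not used for that fit gave whole reads within 0.01. The solving was tested on simulated data. Library totals were not analysed here.

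RUNX1, RUNX2 and RUNX3 were all described. Peaks named singly are the 5 with the highest q-value at each gene, that nearest the 5′ end, the lowest, and those just inside and outside the 30 kb limit; others were chosen after their values were seen. Members and lists were chosen with earlier results of these data known. Peaks by genes of RUNX partners and motifs in peak sequences need hg19 annotation and sequence, which were not used here. Promoters are from RefSeq, and the motif search in them was added after seeing the data; a further motif searched is not reported here. Work was done with Python 3.11.15, scipy 1.17.1, numpy 2.4.6, matplotlib 3.10.9 and pandas 2.3.3.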

Additional observations from a re-analysis of the deposited data

How the results depend on the processing

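Of 90 recomputed values, 69 stayed and 21 moved. Stayed means within 1.5 times the reported count or density, within the interval of the reported median, or at the same rank. Some of the 69 could not move. All 12 values at a −log10 q-value of at least 10 were fixed, since every RUNX peak had at least 12.7. Counts of folds of at least 20 could not change under folds of at least 10. A median at the end of its interval counted as stayed, as did the RUNX3 median fold of 20.8 with folds of at least 10. The RUNX1 median fold of 18.5 with −log10 q-values of at least 30 counted as stayed in the same way. RUNX2 had 0 peaks under every setting run. Settings that only remove peaks or shorten the locus could not change that 0. The margin of 100 kb could have, but the nearest summit lay 130.8 kb from the span. With −log10 q-values of at least 30, RUNX3 had 7 peaks, 5.56 per 100 kb, a median fold of 24.1 and a median spacing of 9568 bp; RUNX1 had 9 peaks, 2.80 per 100 kb and a spacing of 30719 bp; the RUNX3 window ranked 7. With folds of at least 10, RUNX3 had 9 peaks, 7.14 per 100 kb, and the RUNX1 spacing was 21462 bp. With at least 50 ChIP reads, RUNX3 had 6 peaks and RUNX1 8. The RUNX3 density was 24.2 per 100 kb with no margin and 8.65 with a margin of 100 kb. The RUNX3 window ranked 3 among windows of 50 kb, 2 among those of 200 kb, 5 among those of 1 Mb and 2 among stretches of 20 kb starting at a summit, and with windows starting at each summit, which overlap, 1 at 100 kb, 6 at 200 kb and 111 at 1 Mb; those of 20 kb, 200 kb and 1 Mb starting at a summit were chosen after seeing the data. These limits remove weak peaks or change the length by construction. Other settings for motifs in peaks and for partner genes were not run. Leaving out a library cannot be done with 1 ChIP library. No paired analysis was possible because only 1 ChIP library exists here. The weakest RUNX peaks rest on 24 reads; weaker sites were not analysed here.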
